A study of Mus musculus with 2 samples.

Results

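The somatostatin receptor genes are the 5 mouse genes Sstr1, Sstr2, Sstr3, Sstr4 and Sstr5, taken by symbol from the 32285 genes of the deposited tables. Each was present once, and 4 of the 5 had at least 1 count in the cells kept here. The study used single cell RNA sequencing (scRNA-seq) of dorsal telencephalon from WT mouse embryos at embryonic day (E) 14.5 to ask which ligands of SST+ cortical interneurons meet receptors on radial glial cells (RGCs) or on intermediate progenitors (IPCs). Each of the 2 samples gave 1 library, and they are named replicates 1 and 3 as in the labels. Both belonged to 1 group, so cell classes were compared within these libraries. Sample titles carry the name EoMltt3, the labels give the genotype as WT and the source as brain hemispheres, and what the embryos of this line carry and how many embryos went into a library are not given in the sources used here. The study's methods name the C57BL/6J strain.

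Somatostatin is a small inhibitory peptide that is cut from a precursor encoded by Sst and is a marker of a large class of cortical interneurons from the medial ganglionic eminence (MGE). Its receptors are G protein-coupled receptors of 1 family, which also bind cortistatin, the product of the related gene Cort. They act through inhibitory G proteins, which lower adenylyl cyclase activity and open inwardly rectifying potassium (GIRK) channels. In the developing cortex RGCs divide at the ventricle and give rise to IPCs, which express the T-box factor gene Eomes, and most excitatory projection neurons are born from these IPCs.

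Replicate 1 held 6163 cell barcodes with 64182006 unique molecular identifiers (UMIs, each marking 1 captured RNA molecule), and replicate 3 held 8870 barcodes with 93295807 UMIs. After filtering, 5215 and 7035 cells were kept with a median of 10403 and 10639 UMIs, and 29 clusters were formed without the receptor genes and named "-like" from marker genes. The libraries differed in cell make-up. Other GABAergic cells, which carried markers of the caudal or lateral ganglionic eminence (CGE-like and LGE-like), numbered 441 in replicate 1 and 39 in replicate 3, and RGC-like cells 693 and 1588. An unnamed cluster of 11 and 59 cells was led by Fgf17 and Nkx2-1, so not all captured cells were of dorsal origin. Of the kept barcodes, 16 occurred in both libraries. Levels are given in CPM, a gene's UMIs summed over the cells of 1 class in 1 library, divided by all UMIs of those cells and multiplied by 1000000.

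Sstr2 lies on chromosome 11, the others on chromosomes 12 (Sstr1), 15 (Sstr3), 2 (Sstr4) and 17 (Sstr5), and in each canonical transcript the coding sequence sits in 1 exon. The Sstr2 gene (chr11:113619327-113626028, plus strand, GRCm38.p6) lies inside the span of the zinc transporter gene Slc39a11, which is read from the opposite strand. Promoter windows of RefSeq (GRCm38.p6, 250 bases before to 50 after the start) were found for 3 of the 5 genes. Those of Sstr2 and Sstr3 are shown because these are the members whose levels differed most clearly between cell classes. Capitals mark E-boxes (CANNTG, the general motif of proneural basic helix-loop-helix factors, its own reverse complement) and the cAMP response element (TGACGTCA, its own reverse complement).
Sstr2, chr11:113619077-113619376, plus strand: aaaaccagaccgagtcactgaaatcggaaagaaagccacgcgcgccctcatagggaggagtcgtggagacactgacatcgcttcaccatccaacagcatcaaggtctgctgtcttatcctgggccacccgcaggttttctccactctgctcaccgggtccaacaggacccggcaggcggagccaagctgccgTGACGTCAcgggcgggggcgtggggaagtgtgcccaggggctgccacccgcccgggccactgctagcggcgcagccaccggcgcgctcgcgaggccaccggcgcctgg
Sstr3, chr15:78544296-78544595, minus strand: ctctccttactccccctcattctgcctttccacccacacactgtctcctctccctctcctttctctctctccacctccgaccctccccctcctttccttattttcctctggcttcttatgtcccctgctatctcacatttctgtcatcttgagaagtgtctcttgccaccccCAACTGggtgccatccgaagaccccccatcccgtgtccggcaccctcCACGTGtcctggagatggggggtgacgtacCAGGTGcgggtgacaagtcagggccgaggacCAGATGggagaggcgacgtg

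The Sstr2 window held 0 E-boxes and 1 cAMP response element, starting at base 193 of the window, and 27 CpG dinucleotides. The Sstr3 window shown held 4 E-boxes and 10 CpG dinucleotides, and a second Sstr3 window (chr15:78541357-78541656), not shown, held 0 E-boxes and 1 CpG. Of 32851 promoter windows, 72.3% held an E-box, 17.2% held the CAGATG form (or its reverse complement CATCTG), present at the last E-box of the Sstr3 window shown, and 1.79% held a cAMP response element. The T-box site GGTGTGA (or TCACACC), as bound by factors of the Eomes family, was in 3.98% of the windows and in neither of those shown. The cAMP response element was added to the search after the sequence had been seen.

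The first question was which receptors were present at all. Sstr2 accounted for 95.3% of all receptor UMIs in the kept cells, with 6457 UMIs in 3092 cells and up to 10 UMIs in 1 cell. Sstr3 had 252 UMIs in 233 cells, and Sstr1 had 63 UMIs in 61 cells. Sstr4 had 1 UMI, in replicate 1, and Sstr5 had 0. These are counts of the 3′ ends captured, and capture may differ between genes. Nearly all receptor counts were thus from Sstr2, and Sstr4 and Sstr5 were not detectable beyond 1 UMI at this depth.

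Sstr2 encodes a receptor that the octreotide-type drugs bind. Among the named classes its level was highest in IPC-like cells and newborn neuron-like cells, the progeny that has just left the cell cycle, and low on either side of them. IPC-like cells had 120.5 CPM in replicate 1 and 141.0 CPM in replicate 3 (130.7 ± 14.5, SD, n = 2). Newborn neuron-like cells had 161.7 and 135.2 CPM (148.4 ± 18.7). Projection neuron-like cells had 16.7 and 12.9 CPM (14.8 ± 2.68), and RGC-like cells 1.78 and 3 CPM (2.39 ± 0.863). The 2 libraries gave the same order of these 4 classes except for the first pair, where IPC-like cells were lower in replicate 1 and higher in replicate 3.

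**Figure D1:**
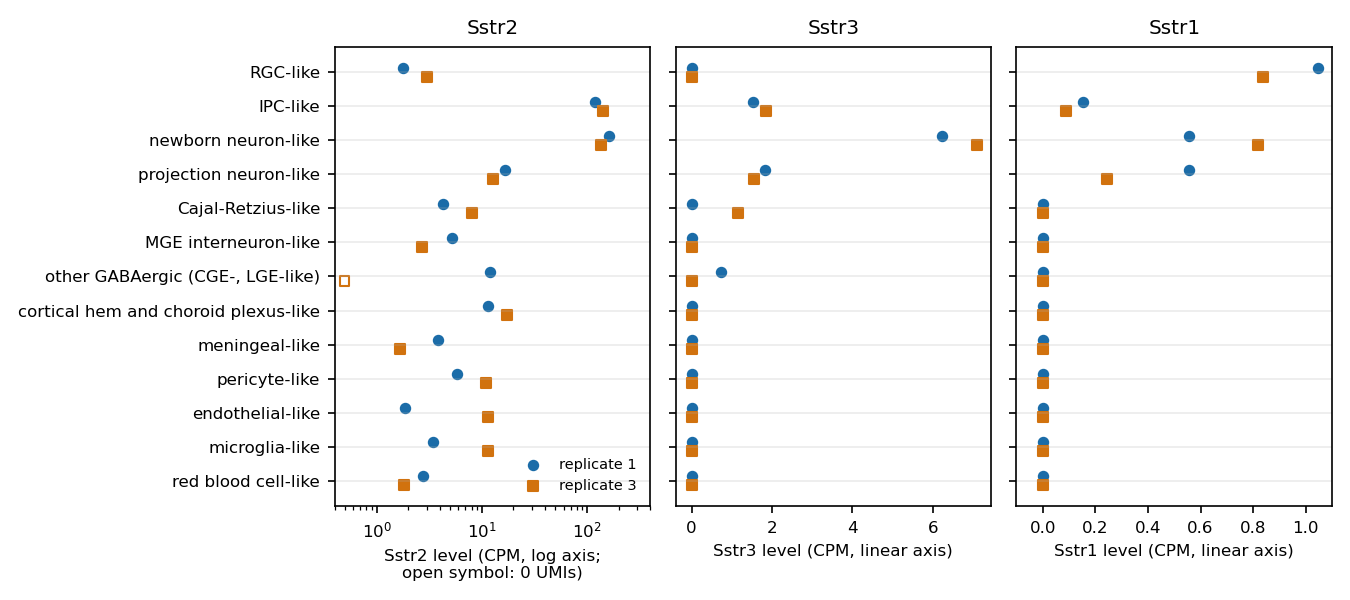
Levels of Sstr2 (log axis), Sstr3 and Sstr1 (linear axes) in CPM for each cell class, with 1 point per library, 13 classes and no error bars. Sstr2 lies above 100 CPM in IPC-like and newborn neuron-like cells of both libraries and below 20 CPM in the other classes, while Sstr3 peaks in newborn neuron-like cells and Sstr1 was at 0 outside the 4 classes of the projection neuron path.

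IPC-like cells had 54.7 times the Sstr2 level of RGC-like cells as a ratio of means, and 67.7 times in replicate 1 and 47.0 times in replicate 3. The log2 fold change was 5.51 (SE 0.27, adjusted p = 2.83e-11 in the quasi-likelihood test of edgeR, adjusted over all genes by Benjamini-Hochberg). In this comparison 36.5% of the 13298 genes tested passed the threshold of 0.05. Newborn neuron-like cells did not differ from IPC-like cells past the threshold (log2 fold change 0.32, SE 0.20, adjusted p = 0.259 in edgeR's test, with 29.5% of genes called), and the CPM ratio was 1.34 in replicate 1 and 0.959 in replicate 3. The value turned to -0.31 when the projection neuron-like cluster with the closest best and second-best class scores was counted as newborn neuron-like. Projection neuron-like cells were lower than newborn neuron-like cells (log2 fold change -3.25, SE 0.22, adjusted p = 2.74e-09 in edgeR's test, with 23.8% of genes called). The class sums of 1 library come from the same sample, and the labels do not say whether the 2 samples were separate embryos. P-values measure the spread between these 2 libraries only, pooled over the 11 classes of the fit. With only the compared classes fitted, the adjusted p in edgeR's test was 5.33e-05 for IPC-like against RGC-like cells. It was 7.97e-05 for projection neuron-like against newborn neuron-like cells.

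The overlapping gene Slc39a11 was at 32.8 and 35.4 CPM in the RGC-like class. The IPC-like class held 124.1 and 112.6 CPM of it, and the projection neuron-like class 67.6 and 61.4 CPM. Its log2 fold change between IPC-like and RGC-like cells was 1.79 (SE 0.17, adjusted p = 1.04e-07 in edgeR's test), in the direction of Sstr2 and smaller. Whether reads were exchanged between them was not tested.

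Within the IPC-like class Sstr2 differed between clusters. The cluster led by Neurog1 and Gadd45g had 89.3 and 85.9 CPM. The cluster led by Neurod4 and Eomes had 160.3 and 187.0 CPM, and the cycling cluster led by Neil3 and Rrm2 had 95.9 and 131.8 CPM. Among newborn neuron-like cells the cluster led by Cdh8 and Unc5d had the highest level of all clusters, at 187.4 and 190.6 CPM, and that led by Adamtsl3 and Ndst3 had 143.8 and 100.3 CPM. A further newborn neuron-like cluster, led by noncoding transcripts and with a median of 3669 UMIs per cell, had 56.8 and 79.2 CPM. Of the projection neuron-like clusters, the one led by Tafa1 and Tafa2, which also had Tfap2d among its leading genes, held 50.3 and 50.4 CPM, that led by Slit3 and Crym 18.8 and 19.1 CPM, and those led by Hs3st4 and by Ldb2 3.36 to 5.56 CPM. The projection neuron-like average thus came from clusters that differed from each other.

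To follow the receptors in finer steps, cells of these 4 classes were ordered by diffusion pseudotime from an RGC-like root and cut into 12 bins of 834 or 835 cells. Sstr2 had 1.85 and 1.88 CPM in the first bin and 4.33 and 6.98 CPM in bin 3, in which 82.1% of cells were RGC-like. It stepped to 115.6 and 131.5 CPM in bin 4, in which 96.9% were IPC-like. The highest level was in bin 6, with 186.2 and 192.8 CPM, where 97.5% of cells were newborn neuron-like. It fell back over the next bins, to 44.5 and 33.0 CPM in bin 8 and 4.73 and 4.42 CPM in the last. Both libraries traced this course, with the largest gap between them in bin 7 (138.4 and 94.7 CPM). Bins are a description, and no test was made along them.

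**Figure D2:**
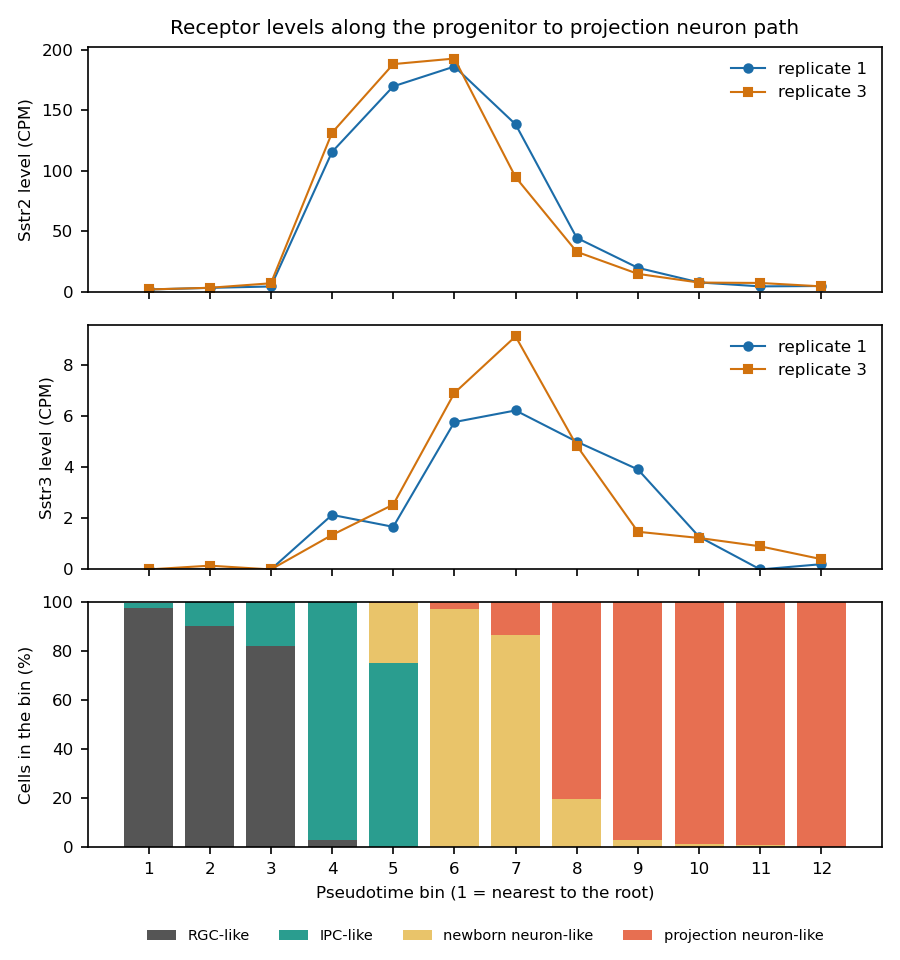
Sstr2 and Sstr3 levels (CPM, 1 line per library) in 12 pseudotime bins, above the share of each class in a bin (%). Sstr2 is highest in bin 6 and Sstr3 in bin 7, in both libraries, and Sstr3 differs between these bins by few UMIs.

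The share of cells with an Sstr2 UMI was compared at equal depth, with each cell thinned to 3000 UMIs. It was 31.0% of IPC-like cells in replicate 1 (95% Wilson interval 27.4 to 34.9, 580 cells) and 31.8% in replicate 3 (29.1 to 34.7, 1057 cells). It was 35.0% (31.6 to 38.6) and 31.4% (28.8 to 34.1) of newborn neuron-like cells, and 5.29% (4.4 to 6.36) and 4.2% (3.39 to 5.19) of projection neuron-like cells. RGC-like cells gave 0.745% (0.319 to 1.73) and 1.03% (0.636 to 1.67). As a measure of free RNA, red blood cell-like cells, which should lack the receptor, gave 0 of 48 and 0 of 62 cells, which allows shares of up to 6.25% and 4.84%, and meningeal-like cells gave 0 of 50 cells and 0.714% (0.126 to 3.94) of 140 cells. These limits are wide because so few such cells were captured. By them alone, neither the RGC-like nor the projection neuron-like share can be told apart from free RNA. At the same depth the projection neuron-like share lay above the RGC-like share in both libraries, with intervals that did not overlap. How much free RNA adds to either share was not tested. Cells under 3000 UMIs were left out, 22 and 38 among RGC-like, 4 and 42 among IPC-like, and 20 and 50 among red blood cell-like cells. Intervals and limits cover counting error only.

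**Figure D3:**
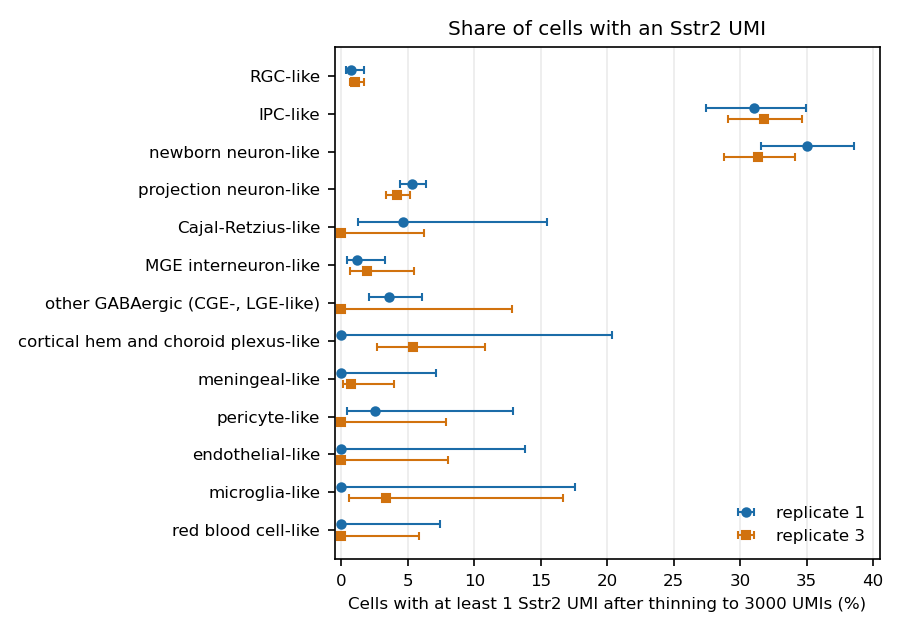
Share of cells (%) with at least 1 Sstr2 UMI after thinning to 3000 UMIs, by class and library, with 95% Wilson intervals. IPC-like and newborn neuron-like cells lie at 31.0% to 35.0%, and no other named class exceeds 5.43%.

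Without thinning, 61.8% and 63.0% of IPC-like cells and 66.5% and 57.8% of newborn neuron-like cells had an Sstr2 UMI, at median depths from 8967 to 10573 UMIs. In RGC-like cells, with a median of 12977 and 11928 UMIs, it was 2.02% and 2.71%, and in red blood cell-like cells, with a median of 4735 and 3277 UMIs, 1.47% and 0.893%. At least 3 Sstr2 UMIs were found in 20.7% and 22.3% of IPC-like cells and in 24% and 16.2% of newborn neuron-like cells, against 0.144% and 0.189% of RGC-like cells. Sstr2 was therefore spread over a large part of the IPC-like and newborn neuron-like cells, and not carried by a few cells with many UMIs.

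Cell cycle phase was scored in IPC-like cells thinned to 3000 UMIs. Sstr2 had 135.7 and 149.6 CPM in cells scored as G1, 74.3 and 90.1 CPM in S and 102.0 and 139.3 CPM in G2M. S was lower than G1 in both libraries (log2 fold change -0.78, SE 0.18, adjusted p = 0.0186 in edgeR's test, with 15.8% of 10206 genes called). The difference between G2M and G1 was -0.17 (SE 0.16, adjusted p = 0.507 in edgeR's test, with 19.8% of genes called). With the replicate number as a block, 2539 genes were called in S against G1 and 3081 in G2M against G1, instead of 1616 and 2020. Phase and position along the path from RGC to neuron cannot be told apart here. The score rests on expression alone, with Mki67 at 6.39 and 5.11 CPM in G1 and 578.2 and 438.6 CPM in G2M.

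The next comparison concerned the cells that make the ligand. MGE interneuron-like cells had 12 Sstr2 UMIs in all, 9 in replicate 1 and 3 in replicate 3, which gave 5.26 and 2.68 CPM. This was lower than in IPC-like cells (log2 fold change -4.74, SE 0.37, adjusted p = 5.37e-09 in edgeR's test, with 48.8% of genes called). It was lower than in projection neuron-like cells as well (-1.81, SE 0.45, adjusted p = 0.00430 in edgeR's test, with 31.9% of genes called), but not past the threshold with a stricter filter on cells (adjusted p = 0.0846 in edgeR's test). Relative to RGC-like cells the pooled ratio was 1.62, with a 95% counting interval from 0.805 to 3, and the libraries went opposite ways (2.96 in replicate 1 and 0.893 in replicate 3). MGE interneuron-like cells were shallow, with a median of 4495 and 4019 UMIs, and at 3000 UMIs 1.15% (0.392 to 3.32) and 1.91% (0.652 to 5.47) of them had an Sstr2 UMI. Against red blood cell-like cells the pooled ratio was 1.92, with a 95% counting interval from 0.427 to 17.7. The level in MGE interneuron-like cells is thus not told apart from free RNA. Of MGE interneuron-like cells with an Sst UMI, 3 of 83 in replicate 1 and 1 of 71 in replicate 3 also had an Sstr2 UMI. In all, 6 of 330 and 3 of 220 MGE interneuron-like cells had an Sstr2 UMI.

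**Figure D4:**
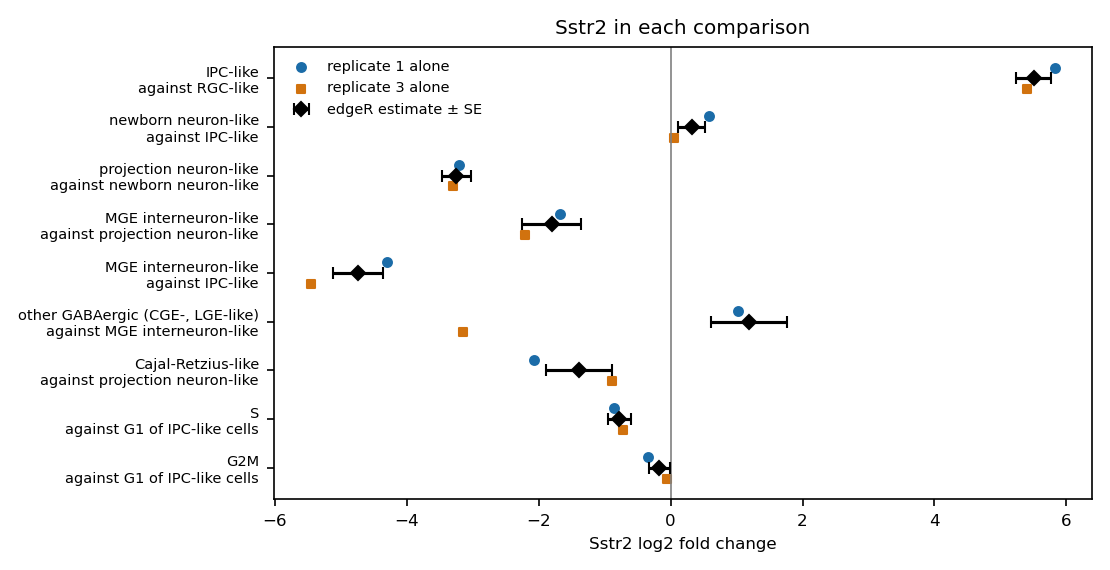
Sstr2 log2 fold change in 9 comparisons, with the edgeR estimate ± SE (diamonds) and the value from each library alone. After trimmed-mean (TMM) scaling of library sizes both libraries lie on the same side of 0 in all comparisons except other GABAergic against MGE interneuron-like cells, where replicate 1 gives 1.02 and replicate 3, with 0 UMIs, -3.15.

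Other GABAergic cells had 33 Sstr2 UMIs in replicate 1 (11.9 CPM) and 0 in replicate 3, where there were only 39 such cells. The log2 fold change against MGE interneuron-like cells was 1.19 (SE 0.57, adjusted p = 0.279 in edgeR's test, with 6.81% of genes called). Replicate 1 alone gave 1.02, and with 0 UMIs in so few cells replicate 3 gives no direction. Cajal-Retzius-like cells, the early Reln-producing neurons of the cortical surface, had 3 and 7 UMIs (4.32 and 8.08 CPM), and differed from projection neuron-like cells by -1.39 on the log2 scale (SE 0.50, adjusted p = 0.0508 in edgeR's test, with 22.8% of genes called). The adjusted p of the Cajal-Retzius comparison ran from 0.00138 (no filter on low counts) to 0.473 (stricter filter on cells) over its alternatives, both in edgeR's test. Among non-neural classes Sstr2 was at 3.81 and 1.69 CPM in meningeal-like, 5.78 and 11 CPM in pericyte-like, 1.87 and 11.5 CPM in endothelial-like, 3.44 and 11.5 CPM in microglia-like and 2.79 and 1.83 CPM in red blood cell-like cells, with at most 10 UMIs in a library. No order is read among the non-neural, Cajal-Retzius-like and GABAergic classes, which rest on at most 33 UMIs in a library.

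Sstr3 encodes a receptor that is known for its place in neuronal primary cilia. It was highest in newborn neuron-like cells, with 45 and 78 UMIs (6.24 and 7.10 CPM), followed by IPC-like cells with 10 and 21 UMIs (1.52 and 1.86 CPM) and projection neuron-like cells with 46 and 38 UMIs (1.82 and 1.56 CPM). RGC-like cells had 0 UMIs in both libraries. Against a floor of 3 counts over both libraries, the pooled level was 67.3-fold higher in newborn neuron-like and 17.3-fold higher in IPC-like cells. These folds leave out the counting error of the higher class. MGE interneuron-like cells also had 0 UMIs, and the same floor gave a fold of 6.37 for newborn neuron-like cells, with the same limit. Along pseudotime Sstr3 had 2.14 and 1.35 CPM in bin 4, where Sstr2 was already above 100 CPM. Sstr3 was highest in bin 7 with 6.23 and 9.13 CPM (21 and 42 UMIs), beside 5.77 and 6.91 CPM in bin 6 (18 and 31 UMIs). With so few UMIs the order of bins 6 and 7 is uncertain, and no later peak than that of Sstr2 is read from it.

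Sstr3 was too rare for the filter of the fit over all classes and was tested between the compared classes alone. For IPC-like against RGC-like cells no test is given, since Sstr3 had no UMI in RGC-like cells and passed the filter through IPC-like cells. For newborn neuron-like against IPC-like cells the log2 fold change was 1.94 (SE 0.27, adjusted p = 0.00187 in edgeR's test, with 37.4% of genes called). It was -1.91 for projection neuron-like against newborn neuron-like cells (SE 0.23, adjusted p = 0.00163 in edgeR's test, with 30% of genes called). Between Sstr2 and Sstr3, 25 of 42 Sstr3-positive newborn neuron-like cells in replicate 1 and 47 of 72 in replicate 3 also had an Sstr2 UMI, beside 480 of 722 and 711 of 1230 newborn neuron-like cells with an Sstr2 UMI in all.

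Sstr1, which encodes another inhibitory receptor of the family, had a different distribution. RGC-like cells had 10 and 17 UMIs (1.05 and 0.836 CPM), newborn neuron-like cells 4 and 9 (0.555 and 0.819 CPM) and projection neuron-like cells 14 and 6 (0.554 and 0.246 CPM). IPC-like cells, where Sstr2 was high, had 1 UMI in each library. The pooled level of RGC-like cells was 8.08 times that of IPC-like cells, with a 95% counting interval from 2.03 to 70.2, and 6.88 and 9.47 times in the 2 libraries. Sstr1 did not pass the filter on low counts. Without that filter its log2 fold change was -1.47 for IPC-like against RGC-like cells and 1.23 for newborn neuron-like against IPC-like cells. With 1 IPC-like UMI a library these fitted values depend on the prior count. No p-value is given for them. In that fit Sstr2 in IPC-like against RGC-like cells had an adjusted p of 4.49e-118 in edgeR's test, against 2.83e-11 with the filter. P-values without the filter are therefore not read as calls. Among RGC-like clusters the one led by Adamts19 and Ltbp1 had 2 and 9 UMIs (2.19 and 2.23 CPM), and among projection neuron-like clusters the one led by Tafa1 and Tafa2 had 10 and 2 (2.96 and 1.48 CPM). With so few UMIs the order of these clusters is uncertain.

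The ligand gene Sst had 372.4 and 446.0 CPM in MGE interneuron-like cells and 39.0 and 14.9 CPM in other GABAergic cells. In the 4 classes of the projection neuron path it was at 2.02 to 7.91 CPM, while red blood cell-like cells, which do not make the peptide, had 5.58 and 10.97 CPM, so the level of the path is not told apart from free RNA. Against projection neuron-like cells Sst was higher in MGE interneuron-like cells (log2 fold change 6.47, SE 0.41, adjusted p = 8.55e-10 in edgeR's test). Cort had 6 and 2 UMIs in MGE interneuron-like cells (3.51 and 1.79 CPM) and at most 5 UMIs in a library in any other class. Receptor and ligand were thus high in separate classes. Sst was high where Sstr2 had 5.26 and 2.68 CPM, and Sstr2 was high where Sst had 2.65 to 7.91 CPM.

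**Figure D5:**
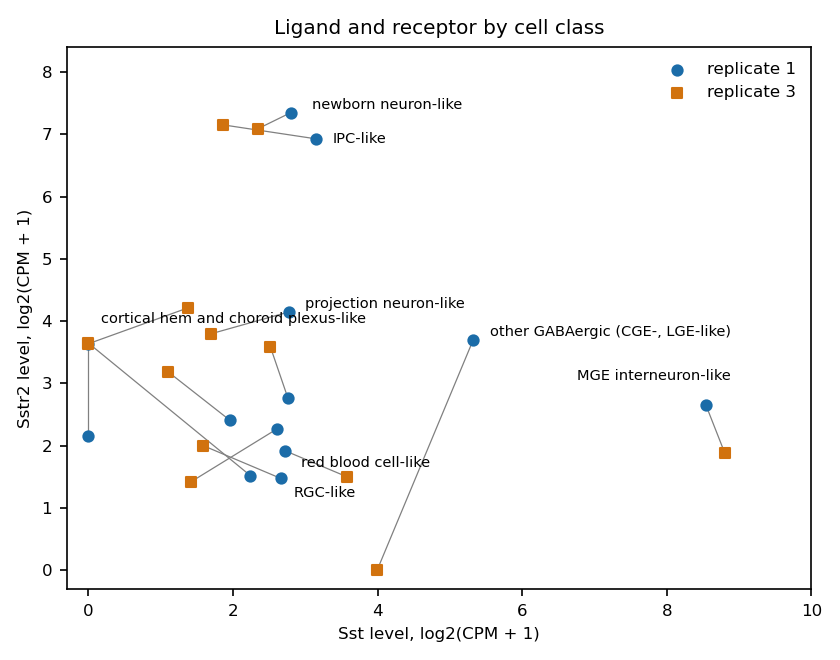
Level of Sst against that of Sstr2, both as log2(CPM + 1), for 13 classes, with 1 point per library and a line joining the libraries of a class. MGE interneuron-like cells lie at the lower right, and IPC-like and newborn neuron-like cells at the upper left.

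Genes for the signalling, partners and traffic of these receptors, for prohormone processing and for related peptide receptors were taken from 11 further lists. Between IPC-like and RGC-like cells, 15% of all tested genes were higher and 21.5% lower in IPC-like cells, with a median log2 fold change of -0.06. Of 3 GIRK channel genes tested, 2 were higher in IPC-like cells and 0 lower (list median 1.43). Kcnj3, which encodes the GIRK1 subunit, went from 5.13 and 3.54 CPM among RGC-like to 64.3 and 72.2 CPM among IPC-like cells (log2 fold change 3.93, SE 0.32, adjusted p = 1.72e-08 in edgeR's test), and Kcnj6 rose by 1.43 (adjusted p = 0.00503 in edgeR's test) from under 1 CPM. Of 5 genes for inhibitory G protein alpha subunits, 4 were lower and 0 higher (median -0.92), among them Gnai2 at -1.57 and Gnaz at -1.39 (log2 fold changes). Kcnj5 and Gnai3 were the members of these lists that did not pass.

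In the same comparison 3 of 8 adenylyl cyclase genes, whose products make cAMP, were lower and 1 higher (median -0.61), led by Adcy2 at -2.14 and Adcy1 at -1.48. Of 11 beta and gamma subunit genes 2 were lower and 1 higher (median -0.22), with Gnb4 at -2.01 and Gng12 at -1.39. Of 11 genes for RGS proteins, which speed the shut-off of G proteins, 2 were higher and 2 lower (median -0.36), with Rgs16 at 2.61 and Rgs8 at 1.70. Of 6 receptor kinases and arrestins, which end receptor signalling, 2 were higher (median -0.14), Grk3 at 1.43 and Grk5 at 0.47. For the 3 tyrosine phosphatases 2 were lower (median -0.66), Ptprj at -2.49 and Ptpn11 at -0.40. Most lists thus held members of either direction or members that did not pass.

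The last lists tested between IPC-like and RGC-like cells were those of prohormone processing, related peptide receptors, PDZ partners and ciliary receptor traffic. Of 5 processing genes 2 were higher (median 0.42), Scg5, a chaperone of a prohormone convertase, at 1.85 and the convertase gene Pcsk2 at 1.02. Of 2 related peptide receptors tested, 1 was higher, the nociceptin receptor gene Oprl1 at 2.13. Of 6 PDZ partners 2 were lower and 1 higher (median 0.00), with the scaffold genes Shank2 at -1.47 and Shank1 at -1.03, and of 8 ciliary genes 2 were lower (median -0.04), Tulp3 at -1.07 and Bbs7 at -0.62. The calls of Pcsk2, Grk5, Rgs8, Ptpn11 and Shank1 were lost under at least 1 alternative.

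Between newborn neuron-like and IPC-like cells, 15.3% of genes were higher and 14.2% lower in newborn neurons (median 0.02). Both Rgs3 (-3.81) and Rgs20 (-3.49) were lower, and of 11 RGS genes 3 were lower and 1 higher (median 0.08). Rgs20 had 174.2 and 144.2 CPM in IPC-like and 15.7 and 9.82 CPM in newborn neuron-like cells. Of 6 PDZ partners 3 were higher and 1 lower (median 0.56), with Shank1 at 2.67 and Mpdz at -2.06. Of 5 alpha subunits 2 were higher and 1 lower (median 0.35), with Gnaz at 1.75 and Gnai2 at -0.71, and of 11 beta and gamma subunits 4 were higher and 2 lower (median 0.27), with Gng3 at 1.18 and Gng5 at -1.49.

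The remaining lists gave 0 to 2 calls each between newborn neuron-like and IPC-like cells. Pcsk1n at 1.37 and Pcsk2 at 1.06 were the 2 of 5 processing genes that were higher (median 0.58), and Adcy2 at 1.38 and Adcy9 at 0.67 the 2 of 8 cyclases (median 0.07). Arrb1, which encodes a beta-arrestin, was higher at 1.53 and Grk3 lower at -1.07, among 6 kinases and arrestins (median -0.07). The opioid receptor gene Oprm1 at 1.75, Ptprj at 1.95 and Tulp3 at 0.74 were the calls of their lists, and of 3 GIRK genes none passed (median 0.40). The calls of Pcsk2, Oprm1, Adcy2, Adcy9 and Grk3 were lost under at least 1 alternative.

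For MGE interneuron-like against projection neuron-like cells, 13.6% of genes were higher and 18.3% lower in MGE interneuron-like cells (median -0.05). The GIRK genes split, with Kcnj3 lower at -4.29, from 193.8 and 187.0 CPM to 9.94 and 9.83 CPM, and Kcnj6 higher at 2.02, from 3.44 and 3.20 CPM to 11.7 and 19.7 CPM. The convertase gene Pcsk1 was higher at 3.48 and the carboxypeptidase gene Cpe at 0.94, 2 of 5 processing genes (median 0.36). Of 11 RGS genes 6 were higher and 4 lower (median 0.50), with Rgs4 at -2.84 and Rgs16 at -2.80.

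In the other lists of that comparison, of 11 beta and gamma subunits 4 were lower and 1 higher (median -0.39), with Gng3 at -0.92 and Gnb2 at -0.88, and Adcy2 at -2.13 was the only one of 8 cyclases that passed (median -0.09). Gnai1 at 0.57 was the 1 call of 5 alpha subunits (median -0.32) and Arrb1 at 1.11 that of 6 kinases and arrestins (median 0.03). Of 6 PDZ partners 2 were higher, Shank3 at 1.10 and Shank2 at 0.92, and 1 was lower, Mpdz at -0.87 (median 0.23). None of 8 ciliary genes (median -0.06), 3 tyrosine phosphatases (median 0.53) and 2 related peptide receptors (median -0.29) passed the threshold. The calls of Gnai1, Rgs4 and Shank2 were lost under at least 1 alternative.

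Sstr2 was last set beside all genes with at least 500 UMIs by the Pearson correlation of log2(CPM + 1) over 11 classes within each library, where the classes of a library share its depth. The 5 genes most like it, of 11795, were 2600014E21Rik (r = 0.918 and 0.889), Abracl (0.883 and 0.882), A930024E05Rik (0.869 and 0.906), F13a1 (0.858 and 0.853) and Pou3f1 (0.843 and 0.875), and 0 genes reached 0.9 in both libraries. Of these, Pou3f1, a POU-domain transcription factor gene, was at 98.1 and 88.4 CPM in IPC-like and at 161.4 and 131.6 CPM in newborn neuron-like cells. Abracl had 876.3 and 1134 CPM in IPC-like and 515.0 and 741.6 CPM in newborn neuron-like cells. In projection neuron-like cells Pou3f1 was at 73.0 and 40.4 CPM and Abracl at 276.9 and 355.1 CPM. Their fall from newborn neuron-like cells was thus smaller than that of Sstr2. F13a1 was at 2654 and 2200 CPM in microglia-like cells, which were too few to enter the correlation, so its likeness holds only without that class. None of the 5 was among the 5 most like Sstr2 by Spearman's rho.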

How the data were processed

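The authors deposited UMI counts per gene and barcode from 10x Genomics 3′ v3.1 libraries, made with Cell Ranger 7.0.0, and the labels name the build mm10. These deposited counts were used without further scaling. Intron setting and cell calling are not given in the sources used here.

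Cells had to hold at least 1500 and at most 60000 UMIs, with a mitochondrial share under 10%. Predicted doublets (a Scrublet-like score, 0.8% per 1000 barcodes) were removed, 238 and 448. Leiden clusters (resolution 1.0, 2000 variable genes, 30 components, 15 neighbours) were made without the receptor and pathway genes. A cluster was named when at least 3 of a class's markers were on. It stayed unnamed if its 10 leading genes held more markers of another class. A low UMI count with no marker of its own class among those genes also left it unnamed. Classes with at least 20 cells in each library entered the fit (22 sums, 11 classes).

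Sums were tested with edgeR 4.0.16 (quasi-likelihood, TMM scaling, its filter on low counts, prior count 2), all classes in 1 fit. The self-test used simulated counts. DESeq2 1.42.0 was an alternative. The replicate number pairs the sums of a library, and correlations of paired deviations ran from -0.04 to 0.35 (median 0.04). Counts of the 2 libraries differed beyond counting error (chi-square of 76.2 per gene), so they were not copies.

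Named genes were the receptors, Sst and Cort, for each list the 2 genes with the largest change past the threshold in the same direction in both libraries, and the 5 genes most like Sstr2. Slc39a11 and the cluster-leading genes were named after the values were seen. The members and lists were chosen with earlier results of these data known. One listed gene, Nherf1, was not matched by symbol. Software was Python 3.11.15, scanpy 1.11.5 and R 4.3.3.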

Additional observations from a re-analysis of the deposited data

Results flagged for a closer look

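Sstr2 was also found in cells that entered no comparison. Cortical hem and choroid plexus-like cells, 15 in replicate 1 and 129 in replicate 3, had a mean of 14.5 CPM (11.4 and 17.5 CPM, from 2 and 33 UMIs). An unnamed cluster of 55 and 159 cells led by Tac2, Tesc and Synpr, with Lhx9 among its leading genes, had a mean of 172.1 CPM (171.7 and 172.5 CPM), which is near the level of newborn neuron-like cells. A second unnamed cluster, led by the keratin genes Krt14 and Krt15, had a mean of 22.2 CPM, from 0 UMIs in replicate 1 and 9 UMIs in replicate 3. All were flagged because the counting interval lay above the limit that a count of 0 allows in data outside the comparisons.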

How the results depend on the processing

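Of the tested alternatives to the Sstr2 fold changes, those not named here kept the direction and the side of the threshold. With the projection neuron-like cluster of nearest scores counted as newborn neuron-like, an alternative added after seeing the data, Sstr2 in newborn neuron-like against IPC-like cells was -0.31 and Sst -0.17, and Sst in projection neuron-like against newborn neuron-like cells 0.29, none past the threshold. With the stricter filter on cells Sstr2 in MGE interneuron-like against projection neuron-like cells was -1.38 and no longer past it. Cajal-Retzius-like against projection neuron-like cells passed with no filter on low counts (-1.60), with predicted doublets kept (-2.01) and with only the classes compared (-1.44). P-values of the fit with no filter are not read as calls. G2M against G1 was 0.087 with thinning to 1500 UMIs. The causes were not tested.

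Leaving out 1 replicate gave no test and a range for Sstr2 of -3.33 to -3.21 for projection neuron-like against newborn neuron-like, -2.23 to -1.67 for MGE interneuron-like against projection neuron-like, -5.50 (without replicate 1) to -4.29 for MGE interneuron-like against IPC-like, -2.06 (without replicate 3) to -0.88 (without replicate 1) for Cajal-Retzius-like against projection neuron-like, 0.063 (without replicate 1) to 0.59 for newborn neuron-like against IPC-like, -0.35 to -0.050 (without replicate 1) for G2M against G1, and -3.30 (without replicate 1) to 1.01 (without replicate 3) for other GABAergic against MGE interneuron-like cells. The value of -3.30 rests on 0 UMIs in other GABAergic cells of replicate 3 and gives no direction. Shares with an Sstr2 UMI follow the depth by construction. They were 17.0% of IPC-like, 21.8% of newborn neuron-like and 0.617% of RGC-like cells at 1500 UMIs, 43.8%, 47.8% and 1.11% at 5000 UMIs, and 62.4%, 62.1% and 2.36% without thinning. The stricter filter gave 28.4% of IPC-like and 0.190% of RGC-like cells, and with doublets kept RGC-like cells had 1.10%.

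With the replicate number as a block, paired by library, Sstr2 was 5.49 for IPC-like against RGC-like cells and -0.78 for S against G1, no Sstr2 call changed, and the counts of genes called in S and G2M against G1 rose to 2539 and 3081. Genes past the threshold in other GABAergic against MGE interneuron-like cells were 906, and 1398 with no filter and 426 with only the classes compared. In G2M against G1 they were 2020, and 1336 with DESeq2 and 985 at 1500 UMIs. Of the 5 genes most like Sstr2, 0 stayed among the first 5 by Spearman's rho and 1 without replicate 3. The bin of the highest Sstr2 level was 6 in each setting tried. Sstr1, Sstr4 and Sstr5 are limited by their counts, and MGE interneuron-like cells by their depth.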
